A study of Mus musculus with 4 samples.

Results

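The mRNA levels of 9 CXC chemokine genes were described in macrophages generated from bone marrow cells, with and without butyrate, in wt and lncLy6c knockout (LNCKO) mice. The genes were Cxcl1, Cxcl2, Cxcl3, Cxcl9, Cxcl10, Cxcl14, Cxcl16, Pf4 (Cxcl4) and Ppbp (Cxcl7), which were taken by symbol and are 9 of the 16375 genes listed. Butyrate is a short-chain fatty acid made by gut bacteria that inhibits histone deacetylases, and lncLy6c is a long noncoding RNA whose gene was disrupted in LNCKO mice. The 4 groups held 1 RNA library each. They were WT control (wt cells without butyrate), WT butyrate (wt cells with 500 µM butyrate for 24 h) and, from lncLy6c knockout mice, the same pair of cultures, LNCKO control and LNCKO butyrate. In all 4 groups the cells had been differentiated from bone marrow with macrophage colony-stimulating factor. The study's methods give an age range for its wild-type mice, and the age and number of the mice behind each library are not given in the sources used here. With 1 library per group, differences between libraries have no replicate check, and no p-values were computed.

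CXC chemokines are small secreted proteins, named for a pair of cysteines set apart by a single residue, that direct the migration of leukocytes through G protein-coupled receptors. Cxcl1, Cxcl2, Cxcl3 and Ppbp belong to the branch that recruits neutrophils through Cxcr2, and macrophages make Cxcl1 to Cxcl3 quickly after NF-kB is activated. Cxcl9 and Cxcl10 are induced by interferons and attract T and NK cells through Cxcr3, Pf4 and Ppbp are best known from platelet granules, Cxcl16 is made as a transmembrane protein that binds Cxcr6, and Cxcl14 is a chemokine of epithelial and stromal tissue.

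The libraries held between 53363944 and 65521712 fragments, as recovered from the deposited values. All 10 macrophage markers reached a mean FPKM (fragments per kilobase of the gene's genomic span per 1000000 fragments) of 1, with Cd68, a lysosomal protein of macrophages, at 307 to 340 and Adgre1, which encodes F4/80, at 5.86 to 7.45. As FPKM depends on the genomic span, it is compared within a gene only. In fragments, Cd68 had 31779 to 41963 and Adgre1 44179 to 55064. The summed FPKM of the 10 macrophage markers, which also depends on the spans, was 2584 without and 3515 with butyrate in WT. In LNCKO it was 2213 and 1489. With butyrate, 9 of the 10 were lower in LNCKO than in WT. Lyz2, which encodes lysozyme and is also made by granulocytes, took most of this sum, at 1972 and 2871 in WT and 1609 and 870 in LNCKO. Markers of other bone marrow cells were present too. The summed FPKM of 12 neutrophil and granulocyte precursor markers was 2824 without and 3363 with butyrate in WT and 2471 and 2379 in LNCKO, and that of 8 B cell markers was 164 in WT butyrate and 210 to 217 in the other libraries. That of 7 erythroid markers was 6.10 and 6.80 in WT and 22.7 and 64.7 in LNCKO, mostly from the haemoglobin genes Hba-a1, Hba-a2 and Hbb-bt, each more than 2-fold higher with butyrate in LNCKO. The part of these cells in the chemokine values was not tested. Ddx3y, a Y-linked gene, had 65 and 49 fragments in the WT libraries and 6128 and 7764 in the LNCKO libraries, so the sex of the mice and the genotype cannot be told apart. In these bulk samples, fewer cells of a type and less RNA per cell cannot be told apart.

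The promoters of Cxcl2, Cxcl3, Cxcl10 and Ppbp are shown first. In a cluster on chromosome 5, Cxcl1, Cxcl2 and Cxcl3 carry the same NF-kB letters close to the start of the gene. The promoter of Cxcl1 is not shown. Promoter sequences are those of RefSeq on GRCm38.p6, from 250 bases before to 50 bases after the start of the gene, and 8 of the 9 members had one, all but Cxcl16. The letters GGAATTTCC, a kappaB sequence, were searched on both strands, as were the letters GAAANNGAAA, the core of the interferon-stimulated response element (ISRE), and the capitals mark these letters. The kappaB letters began 70 bases before the start of Cxcl1, 96 before Cxcl2, 72 before Cxcl3 and, in the reverse orientation, 158 before Cxcl10. The ISRE letters began 213 bases before the start of Cxcl10 and 172 before Cxcl14. The kappaB letters were found in 0.317% and the ISRE letters in 3.44% of all 32851 promoters of this length, and the window of Ppbp held neither. These matches describe letters in a window and are not measurements of binding.
Cxcl2 promoter, chr5:90903649-90903948, plus strand: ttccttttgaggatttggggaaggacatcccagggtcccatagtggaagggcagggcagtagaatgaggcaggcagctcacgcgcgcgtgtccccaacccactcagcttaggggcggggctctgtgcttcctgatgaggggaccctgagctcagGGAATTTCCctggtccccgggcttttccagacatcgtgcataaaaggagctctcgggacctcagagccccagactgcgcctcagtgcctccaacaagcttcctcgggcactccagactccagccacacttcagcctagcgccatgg
Cxcl3 promoter, chr5:90785851-90786150, plus strand: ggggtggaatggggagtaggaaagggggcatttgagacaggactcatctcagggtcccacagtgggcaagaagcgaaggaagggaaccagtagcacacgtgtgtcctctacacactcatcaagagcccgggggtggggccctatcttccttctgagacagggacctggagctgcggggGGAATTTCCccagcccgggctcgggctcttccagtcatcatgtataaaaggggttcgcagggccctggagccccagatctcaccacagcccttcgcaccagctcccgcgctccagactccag
Cxcl10 promoter, chr5:92348840-92349139, minus strand: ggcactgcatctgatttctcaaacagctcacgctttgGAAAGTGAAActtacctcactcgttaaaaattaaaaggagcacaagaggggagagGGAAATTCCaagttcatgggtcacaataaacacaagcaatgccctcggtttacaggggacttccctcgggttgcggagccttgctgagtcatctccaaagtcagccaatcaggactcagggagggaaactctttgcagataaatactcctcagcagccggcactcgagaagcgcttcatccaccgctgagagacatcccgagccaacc
Ppbp promoter, chr5:90768268-90768567, plus strand: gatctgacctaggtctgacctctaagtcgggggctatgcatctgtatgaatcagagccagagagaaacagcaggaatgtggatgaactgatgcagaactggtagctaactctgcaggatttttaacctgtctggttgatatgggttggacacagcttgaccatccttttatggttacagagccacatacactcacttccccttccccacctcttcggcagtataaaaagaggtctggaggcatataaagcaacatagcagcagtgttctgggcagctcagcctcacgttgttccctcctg

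The 7 genes of a cluster on chromosome 5 are read in the order Cxcl5, Ppbp, Pf4, Cxcl3, Cxcl15, Cxcl1 and Cxcl2 on GRCm38. Ppbp (ENSMUSG00000029372, chr5:90768518-90770063) and Pf4 (ENSMUSG00000029373, chr5:90772435-90773383) are adjacent. They are followed by Cxcl3 (ENSMUSG00000029379, chr5:90786103-90789600), Cxcl1 (ENSMUSG00000029380, chr5:90891241-90893115) and Cxcl2 (ENSMUSG00000058427, chr5:90903871-90905938), all on the plus strand. Cxcl9 (ENSMUSG00000029417, chr5:92321347-92328079) and Cxcl10 (ENSMUSG00000034855, chr5:92346638-92348889) lie farther along the same chromosome on the minus strand. Cxcl14 (ENSMUSG00000021508, chr13:56288643-56296551) and Cxcl16 (ENSMUSG00000018920, chr11:70453983-70459984) lie elsewhere.

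Compared per length of all annotated exons, the members formed 5 tiers. The level of Pf4, from 114 to 198 fragments per kilobase of exon and 1000000 fragments over the 4 libraries, lay above that of every other member. Cxcl10 with 36.2 to 52.5, Cxcl16 with 42.4 to 49.5 and Cxcl2 with 23.9 to 43.5 fragments per kilobase of exon and 1000000 fragments overlapped one another and followed. Ppbp stood by itself at 5.32 to 13.4 fragments per kilobase of exon and 1000000 fragments. Cxcl14, Cxcl3 and Cxcl9 lay between 0.509 and 2.07 on the same scale with overlapping ranges, and Cxcl1 was lowest at 0.208 to 0.317. Divided by the length of the principal transcript instead, an alternative chosen after seeing the data, the mean of Cxcl2 (63.2) lay above that of Cxcl16 (50.2) and the mean of Cxcl3 (4.52) above that of Cxcl14 (1.33), since the annotated exons of Cxcl2 and Cxcl3 include retained introns. The annotated exons of Cxcl1 and Cxcl10 also cover the whole gene. The tiers depend on the length used. Per principal transcript, Cxcl3 at 2.36 to 5.83 overlapped Ppbp at 5.32 to 13.4, and Cxcl10 at 74.5 to 108 did not overlap Cxcl16 at 47.5 to 55.4. The plot of FPKM by library shows the values of each gene.

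**Figure D1:**
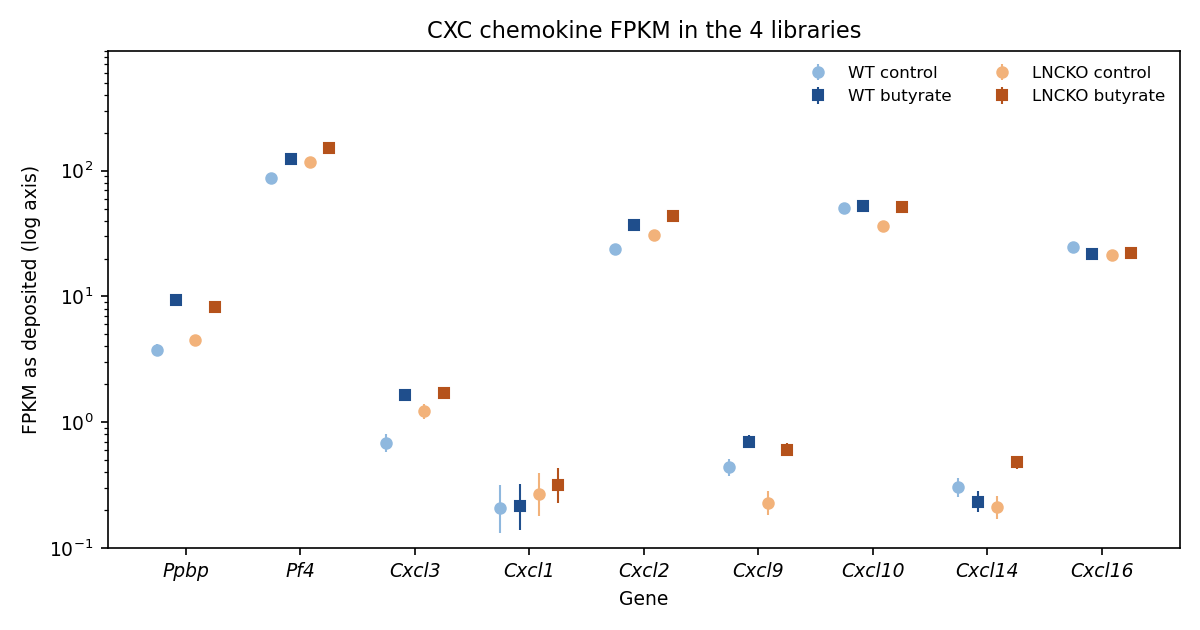
FPKM (log axis, per genomic span, so that heights are compared within a gene) of the 9 CXC chemokine genes in the 4 libraries, 1 point per library. Bars are exact 95% Poisson intervals of the recovered fragments and cover counting error only. The butyrate libraries of Ppbp lie at 9.36 and 8.25 above the control libraries at 3.73 and 4.46, while those of Cxcl16 lie between 21.4 and 24.9 in all 4 libraries.

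With butyrate, 7 of the 9 members had a higher FPKM in WT cells and 9 of 9 had one in LNCKO cells. Over all 16375 listed genes the share that was higher was 40.5% in WT and 42.4% in LNCKO, and over the 6809 genes whose mean FPKM reached 1, which 6 of the members did, it was 36.9% and 42.2%. The members that were higher in both genotypes were 7 of 9, beside 19.2% of all listed genes and 17.9% of those whose mean FPKM reached 1. The median difference of the members on the log2(FPKM + 1) scale was 0.24 in WT and 0.36 in LNCKO, and that of the 6809 genes was -0.04 and -0.01. On this scale, which understates differences of low genes, 3 members were at least 1.5-fold higher in WT (Cxcl2, Cxcl3 and Ppbp), beside 0.808% of the 6809 genes, and 1 was in LNCKO (Ppbp), beside 0.294%. Ppbp in WT was also at least 2-fold higher, beside 0.264% of genes. As plain ratios of FPKM, 4 members reached 1.5-fold in WT (Cxcl2, Cxcl3, Cxcl9 and Ppbp), beside 8.9% of the listed genes above 0 in both libraries, and 3 did in LNCKO (Cxcl9, Cxcl14 and Ppbp), beside 6.6%. No member was 1.5-fold lower in either genotype.

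The question of whether the difference exceeds counting error was asked for each member with the exact conditional binomial (Clopper-Pearson) 95% interval of the ratio of fragments. These intervals cover counting error between 2 libraries and not the spread between cultures or mice. The interval lay above 1 for 5 members in WT, beside 23.5% of the genes with whole fragments, and for 8 in LNCKO, beside 19.8%. It lay below 1 for 2 members in WT, beside 36.7% of these genes, and for 0 in LNCKO, beside 26.8%. Whether an interval excludes 1 depends on the number of fragments as well as on the ratio. The plot of the ratios shows that the lowest genes, above all Cxcl1, had the widest intervals.

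**Figure D2:**
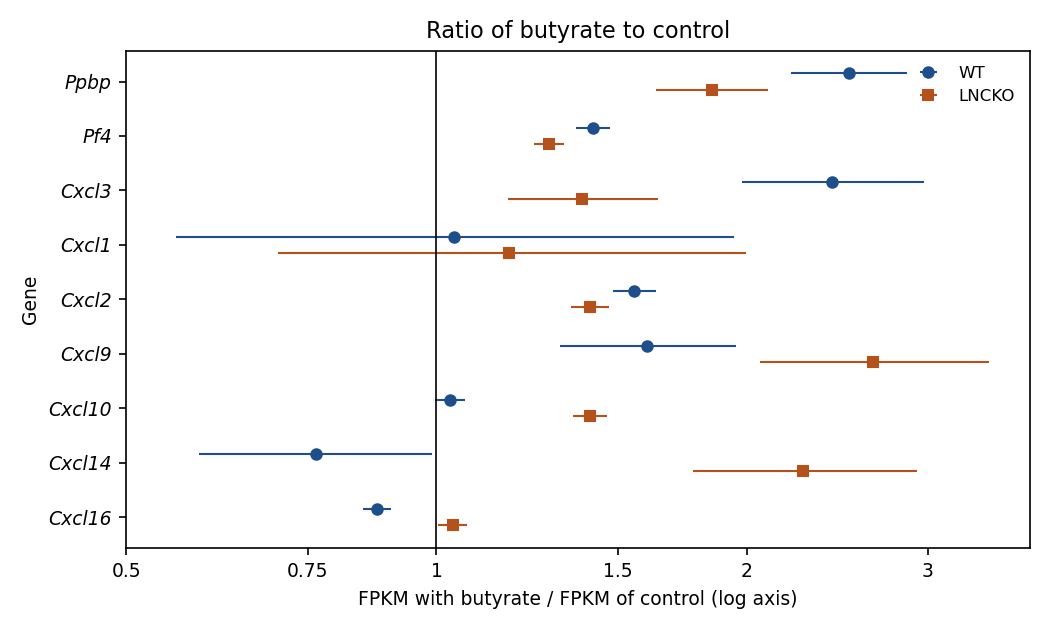
Ratio of FPKM with butyrate to FPKM of the control (log axis) for each CXC chemokine gene in WT (circles) and LNCKO (squares). Bars are exact 95% conditional binomial intervals and cover counting error only, with 1 library per group. Ppbp has a ratio of 2.51 in WT and 1.85 in LNCKO, and Cxcl14 and Cxcl16 lie below 1 in WT and above 1 in LNCKO.

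Ppbp, the precursor of the neutrophil-attracting peptide NAP-2, showed the widest spread over the libraries on the log2(FPKM + 1) scale among the 9 members. As the highest over the lowest FPKM, the spread of Cxcl9 was wider, at 3.07 against 2.51 for Ppbp. In WT the FPKM of Ppbp was 3.73 without and 9.36 with butyrate, from 325 and 857 fragments, and in LNCKO it was 4.46 and 8.25, from 368 and 836 fragments. Both butyrate libraries lay above both control libraries. Butyrate over control gave a ratio of 2.51 (95% counting interval 2.21 to 2.86) in WT and 1.85 (1.63 to 2.10) in LNCKO. LNCKO was above WT without butyrate, with a ratio of 1.20 (1.03 to 1.39), and below it with butyrate, with a ratio of 0.881 (0.800 to 0.971).

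Pf4, platelet factor 4, was the member with the most mRNA per exon length and showed the same order within each genotype with a smaller difference. The FPKM was 86.9 without and 123 with butyrate in WT, and 117 and 150 in LNCKO. Both butyrate libraries lay above both controls, although LNCKO control, at 117, was close to WT butyrate, at 123. With butyrate the FPKM was higher by a ratio of 1.42 (1.37 to 1.47) in WT and 1.29 (1.24 to 1.33) in LNCKO. LNCKO was higher than WT with and without butyrate, with ratios of 1.22 (1.18 to 1.26) and 1.35 (1.30 to 1.40). There were 14.3 Pf4 fragments per Ppbp fragment in WT control and 16.1 in LNCKO control, and 8.08 and 11.2 with butyrate.

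Because Pf4 and Ppbp are abundant in platelets and megakaryocytes, 12 other markers of these cells were read beside them. All 12 had a mean FPKM below 1, and none was at 0 in any library. Since FPKM depends on the genomic span, these values are not compared between genes. In fragments, Itga2b had 691 to 1127, Itgb3 1403 to 2052 and Gp9 28 to 79. Ppbp had 325 to 857 fragments and Pf4 4649 to 9351. The summed FPKM of the 12 markers was 3.68 without and 4.25 with butyrate in WT, and 3.77 and 4.85 in LNCKO. With butyrate 7 of 12 were higher in WT, beside 40.5% of all listed genes, and 10 of 12 in LNCKO, beside 42.4%. The medians of the 12 markers were 0.01 and 0.10 on the log2(FPKM + 1) scale. Itga2b, the platelet integrin subunit CD41, was at an FPKM of 0.728 without and 0.721 with butyrate in WT and of 0.882 and 1.02 in LNCKO, and Gp9, a subunit of the von Willebrand factor receptor, was at 0.491 and 0.786 in WT and 0.309 and 0.585 in LNCKO. The part of platelets or megakaryocytes in the Pf4 and Ppbp values was not tested.

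The genes whose pattern over the 4 libraries was nearest to that of Ppbp, by the distance of centred log2(FPKM + 1) values among 2539 genes whose mean FPKM reached 5, were Spp1, Ccl12 and Saa3. Spp1, which encodes osteopontin, had a distance of 0.26 and an FPKM of 146 and 255 in WT control and butyrate and of 146 and 234 in the LNCKO libraries. Ccl12, a monocyte chemokine, had a distance of 0.34 and Saa3, an acute phase protein made by macrophages, one of 0.38. Both were highest in WT butyrate, with an FPKM of 63.5 for Ccl12 and 461 for Saa3. With 4 libraries, this nearness is a description. No other member spanned a range of 1 on the log2(FPKM + 1) scale.

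Cxcl2, which encodes MIP-2, was the most abundant of the neutrophil-recruiting Cxcl1, Cxcl2 and Cxcl3. Without butyrate its FPKM was 23.9 in WT and 30.8 in LNCKO, and with butyrate it was 37.3 and 43.5. Both butyrate libraries lay above both controls, and LNCKO lay above WT in either condition. Butyrate over control gave 1.56 (1.48 to 1.63) in WT and 1.41 (1.35 to 1.47) in LNCKO, and that of LNCKO to WT was 1.29 (1.22 to 1.35) without and 1.17 (1.12 to 1.21) with butyrate.

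Cxcl3 was far lower, with 135 fragments without and 343 with butyrate in WT, an FPKM of 0.684 and 1.66. In LNCKO it had 228 and 388 fragments, an FPKM of 1.22 and 1.69. The WT control library was the low one, and the libraries with butyrate were close to each other, with a ratio of LNCKO to WT of 1.02 (0.882 to 1.19). Its ratio with butyrate was 2.42 (1.98 to 2.98) in WT and 1.39 (1.17 to 1.64) in LNCKO. The coding sequences of Cxcl2 and Cxcl3 are identical at 272 of 303 aligned bases (89.8%), and their principal transcripts share a stretch of 110 bases without a mismatch, so reads from Cxcl2 could be counted for Cxcl3 or dropped for both, and the Cxcl3 values are uncertain. There were 20.7 Cxcl2 fragments per Cxcl3 fragment in WT control and 13.3 to 15.2 in the other libraries.

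Cxcl1, which encodes KC, was the member with the fewest fragments. It had 22 fragments without and 24 with butyrate in WT, and 27 and 39 in LNCKO, and its FPKM was 0.208 and 0.216 in WT and 0.270 and 0.317 in LNCKO. Butyrate over control was 1.04 (0.558 to 1.94) in WT and 1.18 (0.702 to 2.00) in LNCKO, so that no difference was detectable at this depth. Its coding sequence is 78.7% identical to that of Cxcl2 over 291 aligned bases, with no shared stretch longer than 23 bases. Cxcl1 and Cxcl2 thus carried the same kappaB letters and lie next to each other on the chromosome, but the fragments of Cxcl2 exceeded those of Cxcl1 by 126 to 190 times.

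The 3′ UTRs of the principal transcripts were read for AU-rich elements, because the decay factor Zfp36 (tristetraprolin), which is part of the question the study asked, binds such elements in chemokine mRNAs. The nonamer TTATTTATT, which is bound by Zfp36, was found in 3 of 9 members, namely 2 times in Cxcl1, 4 times in Cxcl2 and 1 time in Cxcl3, and in 7.21% of 15877 listed genes with a 3′ UTR. Of the 7099 genes with a 3′ UTR of 300 to 1500 bases, which include those of these 3 members, 4.90% carried it. The shorter ATTTA, which the nonamer contains, occurred 7, 11 and 5 times in Cxcl1, Cxcl2 and Cxcl3 and 0 to 3 times in the other members. One site of each is shown, with the nonamer in capitals.
Cxcl1 3′ UTR site: atttatgtatTTATTTATTccacaaagtg
Cxcl2 3′ UTR site: gagagttcacTTATTTATTtatctatgta
Cxcl3 3′ UTR site: ttatcagttgTTATTTATTgaaatggtct
Zfp36 itself had an FPKM of 156 without and 130 with butyrate in WT, and of 170 and 164 in LNCKO. Its ratio of butyrate to control was 0.834 (0.821 to 0.848) in WT and 0.962 (0.948 to 0.977) in LNCKO. Of the 7 regulators of mRNA stability read, 3 had a higher and 4 a lower FPKM with butyrate in WT, and in LNCKO the counts were 4 and 3. Zfp36l1, a relative of Zfp36, had the largest positive difference in WT among them, 0.30 on the log2(FPKM + 1) scale. Whether decay has a part in the chemokine values was not tested.

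**Figure D3:**
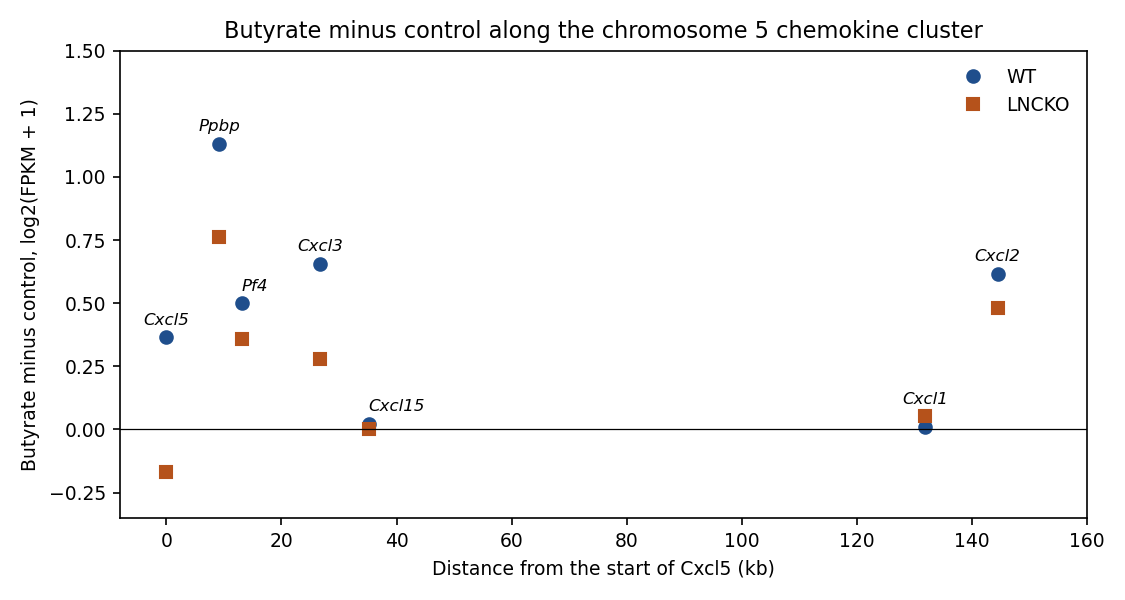
Difference between butyrate and control on the log2(FPKM + 1) scale for the 7 genes of the chromosome 5 chemokine cluster, plotted against the distance from the start of Cxcl5 in kilobases, in WT (circles) and LNCKO (squares), 1 library per group. Ppbp, Pf4, Cxcl3 and Cxcl2 lie above 0.2 in both genotypes, whereas Cxcl15, with 0 to 8 fragments, and Cxcl1, with 22 to 39, lie close to 0.

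Cxcl10, the interferon-induced ligand of Cxcr3, was among the more abundant members. In WT its FPKM was 50.9 without and 52.5 with butyrate, and in LNCKO it was 36.2 and 51.0, from 4351 to 7532 fragments. The LNCKO control library was the low one, and the other 3 lay close together. The ratio of butyrate to control was therefore 1.03 (0.996 to 1.07) in WT and 1.41 (1.36 to 1.46) in LNCKO, and that of LNCKO to WT was 0.711 (0.684 to 0.739) without butyrate and 0.973 (0.941 to 1.00) with it. The small WT difference of 0.04 on the log2(FPKM + 1) scale turned to -0.01 when the FPKM were rescaled to 1000000 per library. Art3, on the other strand, spans the whole of Cxcl10 and shares 133 bases of exon with it, but its FPKM did not exceed 0.00632.

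Cxcl9, the other interferon-induced Cxcr3 ligand read here, was much less abundant, with 166 fragments without and 279 with butyrate in WT, and 82 and 267 in LNCKO. The FPKM was 0.437 and 0.700 in WT and 0.228 and 0.605 in LNCKO. As for Cxcl10, the LNCKO control library was the lowest, and both butyrate libraries of Cxcl9 lay above both controls. With butyrate the ratio was 1.60 (1.32 to 1.95) in WT and 2.65 (2.06 to 3.44) in LNCKO, and that of LNCKO to WT was 0.522 (0.396 to 0.684) without and 0.865 (0.728 to 1.03) with butyrate. The comparison with butyrate in LNCKO and the genotype comparison without butyrate share the LNCKO control library.

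Of 15 other interferon target genes, 14 were higher with butyrate in WT and 14 in LNCKO, beside 36.9% and 42.2% of the 6809 genes. The medians of the list were 0.16 and 0.20 on the log2(FPKM + 1) scale, against -0.04 and -0.01 over the 6809 genes. None of the 15 was past 2-fold. Without butyrate, 9 of 15 were lower in LNCKO than in WT, and with butyrate 12 of 15 were. Of the 6809 genes, 56.7% and 64.2% were higher in LNCKO. Ifit1, an antiviral effector, had an FPKM of 45.6 without and 52.4 with butyrate in WT and of 37.6 and 47.1 in LNCKO, with the LNCKO control library lowest as for Cxcl10. Of these genes with a promoter in the table, 8 of 13 carried the ISRE letters.

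Of 15 NF-kB target genes, 5 had a higher and 10 a lower FPKM with butyrate in WT, and in LNCKO the counts were 8 and 7. The share of the 6809 genes that was higher was 36.9% in WT and 42.2% in LNCKO. Tnf, the inflammatory cytokine, was at an FPKM of 5.60 in WT control and 4.19 in WT butyrate, and Ccl3, a chemokine for monocytes, at 42.9 and 30.7. Il1b was higher with butyrate in WT, at 16.1 against 12.4. The median of the list was -0.11 in WT and 0.02 in LNCKO on the log2(FPKM + 1) scale, against -0.04 and -0.01 over the 6809 genes. Of the 4 members with the kappaB letters, Cxcl2 and Cxcl3 differed by 0.62 and 0.66 in WT and by 0.48 and 0.28 in LNCKO. Cxcl1 and Cxcl10 differed by 0.01 and 0.04 in WT and by 0.05 and 0.48 in LNCKO. The promoters of 3 of 11 NF-kB target genes with one in the table, Icam1, Nfkbia and Tnfaip3, carried the kappaB letters of Cxcl1, Cxcl2, Cxcl3 and Cxcl10. The plot of both genotypes places the members beside these lists.

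**Figure D4:**
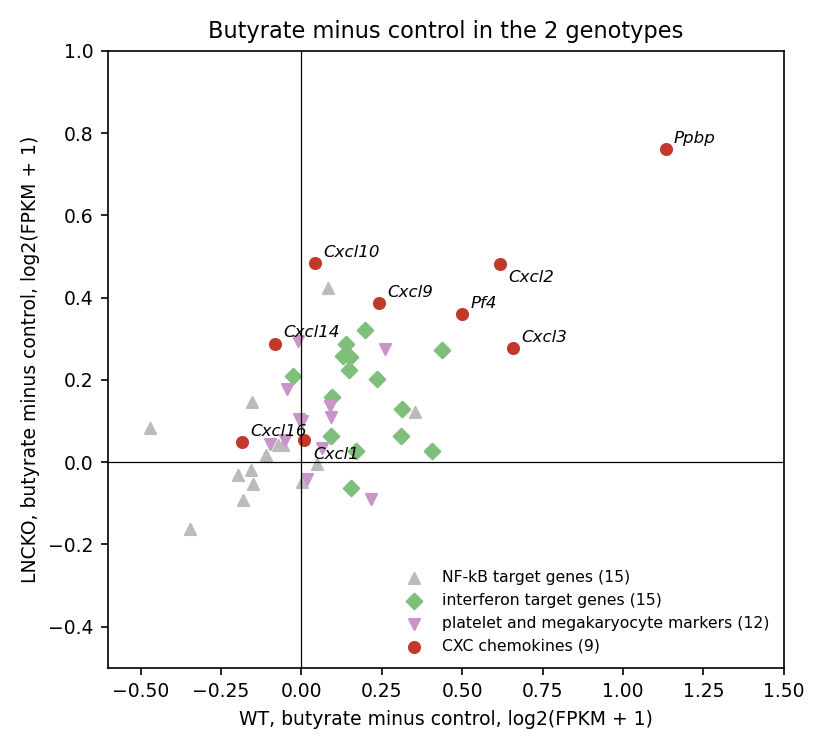
Difference between butyrate and control on the log2(FPKM + 1) scale in WT (x axis) and LNCKO (y axis), 1 point per gene, for the 9 CXC chemokines (named), 15 NF-kB target genes, 15 interferon target genes and 12 platelet and megakaryocyte markers. Ppbp lies farthest to the upper right at 1.13 and 0.76, and Cxcl10 lies near 0 in WT and at 0.48 in LNCKO.

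Cxcl16, a membrane-bound chemokine and scavenger receptor, varied least among the 9 members when the highest FPKM is divided by the lowest. On the log2(FPKM + 1) scale the range of Cxcl1 was narrower, at 0.13 against 0.21 for Cxcl16. Cxcl16 was at an FPKM of 24.9 without and 21.8 with butyrate in WT, and at 21.4 and 22.1 in LNCKO. Only the WT control library stood apart. The ratio of butyrate to control was 0.875 (0.849 to 0.903) in WT and 1.04 (1.004 to 1.07) in LNCKO. The first 552 bases of the gene are shared with exons of Zmynd15 on the other strand, which had an FPKM of 3.71 to 6.15. Adam10 and Adam17, which release Cxcl16 from the membrane, were lower with butyrate in WT, with ratios of 0.766 (0.748 to 0.785) and 0.829 (0.810 to 0.848), and close to 1 in LNCKO, at 0.958 and 0.985. Dpp4, which trims Cxcl9 and Cxcl10, had a ratio of 0.747 (0.718 to 0.776) in WT and 1.10 (1.07 to 1.14) in LNCKO.

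Cxcl14 was low in all 4 libraries, with 136 fragments without and 109 with butyrate in WT, and 89 and 248 in LNCKO. Its FPKM was 0.305 and 0.233 in WT and 0.211 and 0.479 in LNCKO, and LNCKO butyrate stood above the other 3. Its ratio with butyrate was 0.764 (0.588 to 0.990) in WT and 2.27 (1.77 to 2.92) in LNCKO, and that of LNCKO to WT was 0.692 (0.523 to 0.910) without and 2.06 (1.63 to 2.60) with butyrate. All 8 stromal markers were higher with butyrate in LNCKO, beside 42.4% of all listed genes, and 4 of 8 were in WT, beside 40.5%. The summed FPKM of the 8 markers was 10.3 without and 8.99 with butyrate in WT, and 3.01 and 5.98 in LNCKO. The part of stromal cells in the Cxcl14 values was not tested.

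Between genotypes, 5 members had a higher FPKM in LNCKO than in WT without butyrate, beside 49.7% of all listed genes and 56.7% of those whose mean FPKM reached 1. With butyrate the count was 6 of 9, beside 53.3% and 64.2%. The median difference of the members was 0.07 without and 0.02 with butyrate, against 0.01 and 0.04 over the 6809 genes. No member was 1.5-fold higher or lower on the log2(FPKM + 1) scale. As plain ratios of FPKM, Cxcl3 at 1.78 was past 1.5-fold higher in LNCKO without butyrate, beside 6.06% of the listed genes above 0 in the libraries compared, and Cxcl9 at 0.522 was past 1.5-fold lower, beside 7.08%. With butyrate only Cxcl14 was past 1.5-fold, at 2.06, beside 7.46% that were as much higher. Without butyrate, the 5 members of the chromosome 5 cluster with Ppbp (Cxcl1, Cxcl2, Cxcl3, Pf4 and Ppbp) were higher in LNCKO and the other 4 (Cxcl9, Cxcl10, Cxcl14 and Cxcl16) were lower. For Cxcl1 the counting interval held 1. This grouping by position was read from the same values and was not tested. The ratio furthest from 1 was that of Cxcl9.

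**Figure D5:**
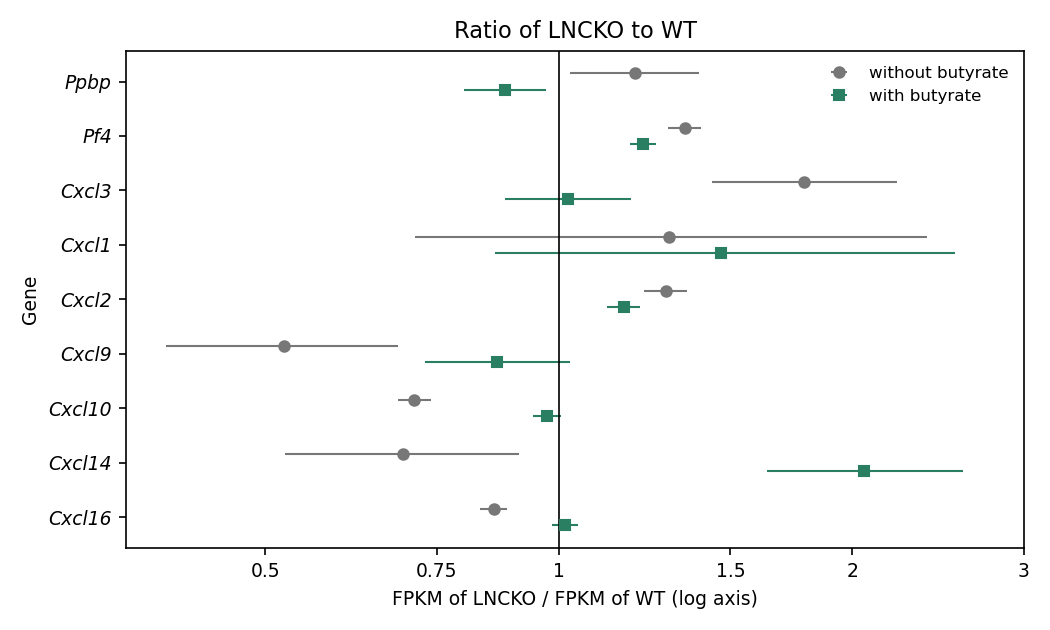
Ratio of LNCKO to WT FPKM (log axis) for each CXC chemokine gene without butyrate (circles) and with butyrate (squares). Bars are exact 95% conditional binomial intervals and cover counting error only, with 1 library per group. Without butyrate, Cxcl9 lies at 0.522 and Cxcl10 at 0.711, and with butyrate at 0.865 and 0.973.

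The difference between the butyrate responses of WT and LNCKO could not be tested with 1 library per group. On the log2(FPKM + 1) scale, the WT response exceeded that of LNCKO for 4 members, by 0.38 for Cxcl3, 0.37 for Ppbp, 0.14 for Pf4 and 0.14 for Cxcl2. It was below that of LNCKO for the other 5, with differences of -0.44 for Cxcl10, -0.37 for Cxcl14, -0.23 for Cxcl16, -0.14 for Cxcl9 and -0.04 for Cxcl1. No member differed by a factor of 1.5 or more in its response on this scale. As plain ratios with no pseudocount, 3 members did. The log2 difference was then -1.57 for Cxcl14, the largest in size among the members, and -0.73 for Cxcl9, beside 8.6% of the listed genes whose WT response was as much lower, and 0.80 for Cxcl3, beside 8.82% whose WT response was as much higher.

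The receptors of these chemokines were read from the same libraries. Cxcr2, through which Cxcl1, Cxcl2, Cxcl3 and processed Ppbp act, had an FPKM of 22.6 without and 31.6 with butyrate in WT, and of 19.0 and 22.0 in LNCKO. The ratio of butyrate to control was 1.40 (1.36 to 1.43) in WT and 1.16 (1.12 to 1.19) in LNCKO. Cxcr1, the other receptor of this branch, had 64 and 201 fragments in WT and 49 and 118 in LNCKO, a ratio of 2.99 (2.25 to 4.03) in WT and 1.96 (1.39 to 2.80) in LNCKO. Both receptors are carried by neutrophils. Of 12 neutrophil and granulocyte precursor markers, 9 were higher with butyrate in WT, beside 36.9% of the 6809 genes. In LNCKO 3 of 12 were, beside 42.2%. Ly6g, a marker of mature neutrophils, was at an FPKM of 4.04 and 9.43 in WT and 2.99 and 3.79 in LNCKO, and the part of these cells in the receptor values was not tested.

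Cxcr3, the receptor of Cxcl9 and Cxcl10, was at an FPKM of 2.18 without and 2.59 with butyrate in WT, and of 2.09 and 1.81 in LNCKO. Cxcr4, the receptor of Cxcl12, was lowest in WT butyrate, at 48.8 against 64.0 to 65.2 in the others. Cxcr6, the receptor of Cxcl16, had only 33 to 58 fragments. Of the 8 receptors read, 6 had a higher and 2 a lower FPKM with butyrate in WT, and in LNCKO the counts were 4 and 3. The share of all listed genes that was higher was 40.5% in WT and 42.4% in LNCKO.

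Among the other CXC ligands, Cxcl12, which retains stem cells in the marrow, had 766 fragments without and 1223 with butyrate in WT, and 127 and 360 in LNCKO, so that both LNCKO libraries lay below both WT libraries. The ratio of LNCKO to WT was 0.175 (0.144 to 0.212) without and 0.266 (0.236 to 0.299) with butyrate. Col1a1, a stromal collagen, was also lower in both LNCKO libraries, at an FPKM of 5.14 without and 4.04 with butyrate in WT and 1.20 and 2.31 in LNCKO, although it was lower with butyrate in WT while Cxcl12 was higher. Col3a1, another collagen, was highest in LNCKO butyrate, at 0.707 against 0.277 to 0.603 in the others, and the part of stromal cells in the Cxcl12 values was not tested. Cxcl5, next to Ppbp, had 15 and 59 fragments in WT and 25 and 11 in LNCKO. Cxcl13, Cxcl15 and Cxcl17 had 0 fragments in 3 libraries and 1 to 8 in WT butyrate, and a count of 0 allows up to 3 fragments. Cxcl11 was not analysed here.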

How the data were processed

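RNA sequencing of bone marrow-derived macrophages gave 4 libraries, 1 for each of 2 genotypes with and without butyrate. The authors deposited FPKM values per gene and no counts. The submitters' processing notes name GRCm38, STAR 2.5.0c, Picard 1.126, bedtools 2.17.0 and HTSeq 0.6.0, and whether counting used strand is not given in the sources used here. The study's methods name TRIzol extraction and 100-bp paired reads on an MGISEQ-2000, whereas the labels name an Illumina protocol.

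For each library, a total was searched that turned FPKM times the gene's genomic span (GENCODE M21) into whole fragments. Of 16342 listed genes matched to the annotation, 98.5% of genes were whole within 0.02 in all 4 libraries, all 9 members among them. Fragments carry no molecular identifiers, so intervals cover counting error only. Differences are log2 ratios of FPKM + 1, and background shares were taken over genes whose mean FPKM reached 1 or over all listed genes. Grouping followed the sample titles. The names of both LNCKO libraries in the file, NC and R3, do not spell out their conditions. The gene lncLy6c was not analysed here, so the knockout was not checked.

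All 9 members and the genes of the lists could be named, with the 3 genes nearest in pattern to each member that spanned at least 1 on the log2 scale, and genes that overlap or neighbour a member. The members and lists were chosen with earlier results of these data known. The lists of T and NK cell, of dendritic cell, and of mast cell and basophil markers are not described elsewhere. Their medians with butyrate were -0.04, -0.01 and -0.06 in WT and -0.01, -0.02 and -0.03 in LNCKO on the log2(FPKM + 1) scale. The erythroid markers had medians of 0.01 in WT and 0.00 in LNCKO, where 3 of 7 were past 2-fold higher with butyrate. Mcpt8, a basophil protease, had an FPKM of 5.85 without and 2.96 with butyrate in WT and of 10.1 and 9.23 in LNCKO. The alternatives were other pseudocounts, scalings and filters. Steps were tested on simulated data. Scripts ran under Python 3.11.15 with scipy 1.17.1 for intervals, numpy 2.4.6 and pandas 2.3.3 for tables, and matplotlib 3.10.9 for figures.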

Additional observations from a re-analysis of the deposited data

Results flagged for a closer look

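Cxcl14, Cxcl16 and Cxcl5 lay in opposite directions with butyrate in the WT and the LNCKO libraries, with counting intervals that excluded 1 in both. For Cxcl16 in LNCKO the interval began at 1.004. The share of all genes with such opposite intervals was not computed. In WT the interval lay above 1 for 23.5% and below 1 for 36.7% of the genes with whole fragments, and in LNCKO for 19.8% and 26.8%. With 1 library per group, the difference between genotypes was not tested. The WT response less the LNCKO response on the log2(FPKM + 1) scale was -0.37 for Cxcl14, -0.23 for Cxcl16 and 0.53 for Cxcl5. For Cxcl14 the ratio of butyrate to control was 0.764 in WT and 2.27 in LNCKO, for Cxcl16 it was 0.875 and 1.04, and for Cxcl5, with 11 to 59 fragments per library, it was 3.75 (2.10 to 7.11) and 0.358 (0.159 to 0.755).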

How the results depend on the processing

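No paired analysis was possible because each group held 1 library, which also left no replicate to leave out. The median of the 9 members in WT with butyrate, 0.24, was 0.50 with a pseudocount of 0.1, 0.51 with none, 0.45 after rescaling to 1000000 per library and 0.50 on recovered fragments per 1000000, and the other 21 of 25 medians moved by less than 0.2. Of the 25, 1 took the other sign, from 0.02 to -0.01 for LNCKO against WT with butyrate after median-ratio scaling. Of 234 values of single members, 46 moved beyond their counting interval, 0 reversed by more than 0.1 and 4 near 0 took the other sign. The 2-fold counts over all genes, in either direction, were 23 with butyrate in WT, 12 in LNCKO, 19 and 32 for LNCKO against WT without and with butyrate, and 23 for the difference in response. In that order they were 155, 95, 128, 171 and 240 after rescaling to 1000000 per library, 114, 69, 100, 173 and 207 on fragments per 1000000, and 12, 5, 5, 18 and 10 at a mean FPKM of at least 5. With a pseudocount of 0.1 they moved to 41, 19, 57 and 48, and with none to 49, 21, 62 and 54, for all but LNCKO against WT without butyrate. Rescaling and fragments per 1000000 also change which genes pass the filter. Of 225 medians of other lists, 30 moved by more than 0.2, 0 reversed by more than 0.1 and 7 near 0 took the other sign. Below about 50 fragments, as for Cxcl1, depth limits what can be seen.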
